A study of Mus musculus with 65 samples.

Results

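The histone genes measured in single progenitor cells of the embryonic mouse brain were 31 of the 10407 genes in the tables. They were taken by name: 21 replicative genes, whose names start with Hist and a digit, and 10 variant genes, whose names start with H1f, H2af or H3f. The 65 cells came from embryos of the CD1 strain and were made into 1 library per cell by Patch-seq, which harvests a cell through a recording pipette. There were 20 cells of embryonic day 12 (E12) marked with FlashTag, a dye that labels cells dividing at the ventricle, and 26 FlashTag cells of embryonic day 15 (E15), both under the condition WT. The third group held 19 cells with the condition Transplanted, which were E15 progenitors in an E12 brain, called transplanted cells here. The source is given as neuronal progenitors for all 3 groups. The comparisons ask how histone transcripts differ between progenitors of the 2 ages, and whether E15 progenitors placed in a younger brain differ from either.

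Histones package DNA into nucleosomes, an octamer of H2A, H2B, H3 and H4 with H1 as the linker histone. The replicative genes lie in clusters, have mostly no introns and are transcribed in S phase, when new DNA needs new histones. Their messenger RNAs end in a conserved stem-loop instead of a poly(A) tail. Variant genes mostly lie alone, are transcribed throughout the cell cycle, have poly(A) tails and give histones with their own roles, such as H2A.Z at promoters, H3.3 in transcribed genes, H2A.X at DNA breaks and macroH2A in silent chromatin. The SMART-Seq v4 3′ kit used here starts from poly(A), so replicative transcripts enter a library only where they carry adenines; which forms gave the reads was not tested.

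Reads of the E12 cells ranged from 10928 to 1635767 (median 148824), of the E15 cells from 11449 to 4560871 (median 998630) and of the transplanted cells from 22358 to 3622411 (median 166134). No animal, litter or host brain is named in the labels, so a group stands for 1 sample, without p-values or standard errors. Levels are in CPM, reads of a gene per 1000000 reads over all genes measured, after adding the reads of a group's cells. Parentheses hold exact 95% limits of counting error only, since PCR copies were counted as reads, with no molecular identifiers to mark them. Reads of more than 8000 genes were found in 16 libraries, 11 of E15, 5 transplanted and 0 of E12, and these are called many-gene libraries. At E15 they had higher sums of microglia and of ventral telencephalon markers than the rest. In transplanted cells their ventral sum was higher than in the rest and their microglia sum lower. In the E15 group, 13 microglia and macrophage genes summed to 3943 CPM in the many-gene libraries and 1292 CPM in the other 15 cells (278.0 CPM without replicate 10), and 11 ventral telencephalon and interneuron genes to 3805 and 591.0 CPM (387.7 CPM without replicate 26). The 12 apical progenitor genes, among them Sox2 and Pax6, summed to 1330 and 13164 CPM there. The E12 cells, with no such library, had 81.3, 328.2 and 7545 CPM of these 3 lists, the first 2 at 40.8 and 155.6 CPM without replicate 19. By gene, 8 of the 12 apical progenitor genes were lower in those other 15 E15 cells than at E12, despite the higher sum. At least 2-fold, 4 were lower (21.6% of all genes) and 2 higher (24.2%), and the median log2 ratio was -0.66. In the 5 transplanted many-gene libraries the 3 sums were 724.3, 2472 and 2002 CPM, against 1811, 1726 and 11156 CPM in the other 14 cells. Microglia genes in those 14 were at 693.3 CPM without replicate 18 and apical genes at 5630 CPM without replicate 19. In the many-gene ones microglia genes were at 422.5 CPM without replicate 14. The 10 neuron genes summed to 1012 CPM at E12, 4262 CPM at E15 and 3835 CPM in transplanted cells. The 5 measured erythroid genes were at 15773 CPM in the transplanted cells, 2636 CPM at E15 and 2958 CPM at E12, but at 3250 CPM without transplanted replicate 19 and 1085 CPM without E15 replicate 6. The part of these cell types, and of depth, in the histone values was not tested. Many levels therefore stand below with and without the 16 libraries, and the others are over all cells only.

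The stem-loop was searched for in the GENCODE vM21 transcripts as the 16-base histone stem-loop, with fixed bases in the stem and loop and 5 free positions, on the transcribed strand. It was found in 16 of the 21 replicative genes (76.2%), in 1 of the 10 variant genes and in 31 of 10185 annotated genes of the tables (0.304%). The variant gene was H2afx, which is known to be made in both forms, with a stem-loop or with a poly(A) tail. Of the 16 replicative genes, 10 had an annotated transcript that ran 151 to 2445 bases past the stem-loop, 6 of them with the polyadenylation letters AATAAA in their last 60 bases. The other 6 ended 11 to 74 bases after it, and 0 of those had AATAAA there. No match was found in Hist1h1a, Hist1h1b, Hist1h2bc, Hist2h2be and Hist1h2al. The sequences below are the stem-loops, in capitals, with 7 bases on either side, of the genes that carried most replicative reads, of Hist1h2ag as 1 of the short transcripts, and of H2afx (GRCm38, 5′ to 3′).
Hist1h1c, chr13:23739505-23739534 (plus strand): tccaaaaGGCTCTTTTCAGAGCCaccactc
Hist1h1e, chr13:23621775-23621804 (minus strand): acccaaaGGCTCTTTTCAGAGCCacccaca
Hist3h2ba, chr11:58949342-58949371 (plus strand): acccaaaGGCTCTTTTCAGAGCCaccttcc
Hist3h2a, chr11:58955165-58955194 (plus strand): caccaaaGGCTCTTTTCAGAGCCacccaca
Hist1h2ae, chr13:23570661-23570690 (minus strand): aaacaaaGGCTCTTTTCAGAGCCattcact
Hist1h4d, chr13:23581943-23581972 (plus strand): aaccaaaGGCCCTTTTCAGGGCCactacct
Hist1h2ag, chr13:22042476-22042505 (minus strand): caacaaaGGCTCTTTTCAGAGCCacctaac
H2afx, chr9:44335233-44335262 (plus strand): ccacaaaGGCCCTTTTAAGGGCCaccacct

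The replicative H1, H2A and H2B stem-loops printed here had the letters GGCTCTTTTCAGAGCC, which 10 of the 16 replicative matches shared. The H4 gene Hist1h4d had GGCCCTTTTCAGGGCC, which was found in 3 replicative genes. Of the other 3 matches 2 read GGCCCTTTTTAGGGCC and 1 read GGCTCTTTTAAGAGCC. Reads were unequal between the kinds of annotated end. The 10 genes with a long transcript past the stem-loop held 744.2 CPM at E12, 1518 CPM at E15 and 1450 CPM in transplanted cells. Hist3h2ba, Hist3h2a and Hist1h1c are among these 10. Hist3h2ba alone was at 222.4, 743.2 and 784.7 CPM in the 3 groups, and Hist3h2a at 55.2, 288.5 and 259.0 CPM. The 6 that end near the stem-loop held 115.1, 64.0 and 55.9 CPM, and the 5 without a match 122.2, 120.9 and 86.5 CPM. Of 67 protein-coding genes that GENCODE vM21 names as replicative, 20 had a row: 4 of 6 H1, 4 of 18 H2A, 5 of 18 H2B, 2 of 12 H3 and 5 of 13 H4 genes. The remaining row, Hist1h2al, is annotated as a processed pseudogene. Genes without a row were not analysed here. Copies of these genes are nearly identical to each other, so reads may be split between them.

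Variant genes carried most histone reads in every group. All 31 genes together took 0.883% of the reads at E12, 1.22% at E15 and 1.08% in transplanted cells, and the replicative share of histone reads was 11.1%, 13.9% and 14.7%. Without the many-gene libraries that share was 13% at E15 and 10.7% in transplanted cells. The 21 replicative genes summed to 981.5 CPM (954.1 to 1010) at E12, 1703 CPM (1690 to 1716) at E15 and 1592 CPM (1570 to 1614) in transplanted cells. Single cells ranged from 19.3 to 5679 CPM at E12 (median 829.4), from 231.1 to 2826 CPM at E15 (median 1211) and from 100.7 to 4616 CPM in transplanted cells (median 1111), so the groups overlapped widely. In the other libraries the sums were 1065 CPM at E15 and 1010 CPM in transplanted cells, and the log2 ratio of E15 over E12 moved from 0.79 to 0.12. The mean CPM of single cells also lay closer together, at 1204.3, 1279.8 and 1511.5 CPM. The 10 variant genes summed to 7847 CPM at E12, 10528 CPM at E15 and 9216 CPM in transplanted cells, and to 7101 and 8397 CPM in the latter 2 groups without the many-gene libraries.

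**Figure D1:**
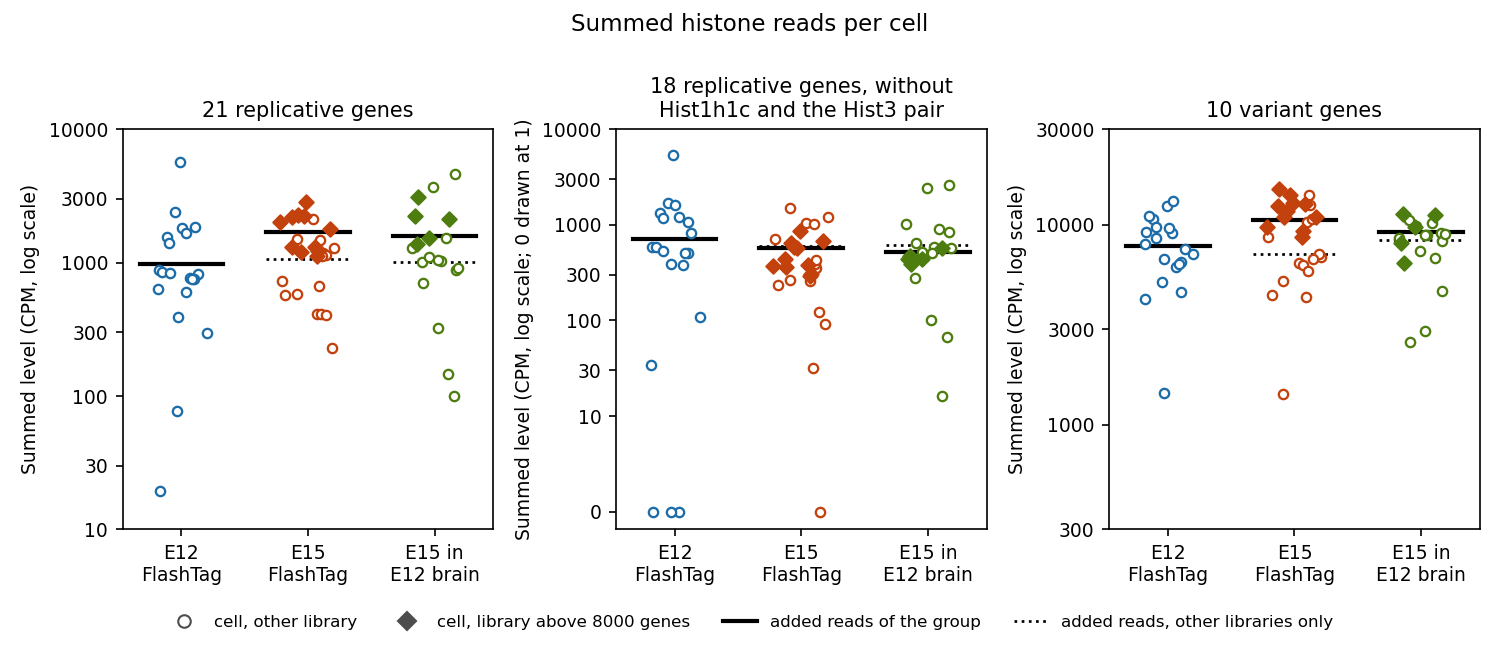
Summed level per cell in CPM (log scale) of the 21 replicative genes, of the 18 left without Hist1h1c and the Hist3 pair, and of the 10 variant genes, in the 3 groups. Circles are cells, filled diamonds cells with reads of more than 8000 genes, thick lines the added reads of the group and dotted lines the same without the diamonds; the replicative lines of E15 and transplanted cells drop from 1703 and 1592 to 1065 and 1010 CPM, near the E12 line at 981.5 CPM.

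The higher replicative sums of E15 and transplanted cells came from 3 of its 21 genes. Hist3h2a and Hist3h2ba, a neighbouring H2A and H2B gene, summed to 277.6 CPM at E12, 1032 CPM at E15 and 1044 CPM in transplanted cells. Without this pair the other 19 genes were at 703.9, 671.2 and 548.2 CPM, and without Hist1h1c as well the remaining 18 were at 703.7, 576.4 and 514.5 CPM. Leaving out the many-gene libraries, those 18 genes stood at 594.0 CPM at E15 and 616.0 CPM in transplanted cells. In the many-gene libraries alone they were at 569.1 CPM at E15 and 456.3 CPM in transplanted cells, whereas the pair was at 1274 and 1437 CPM there.

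**Figure D2:**
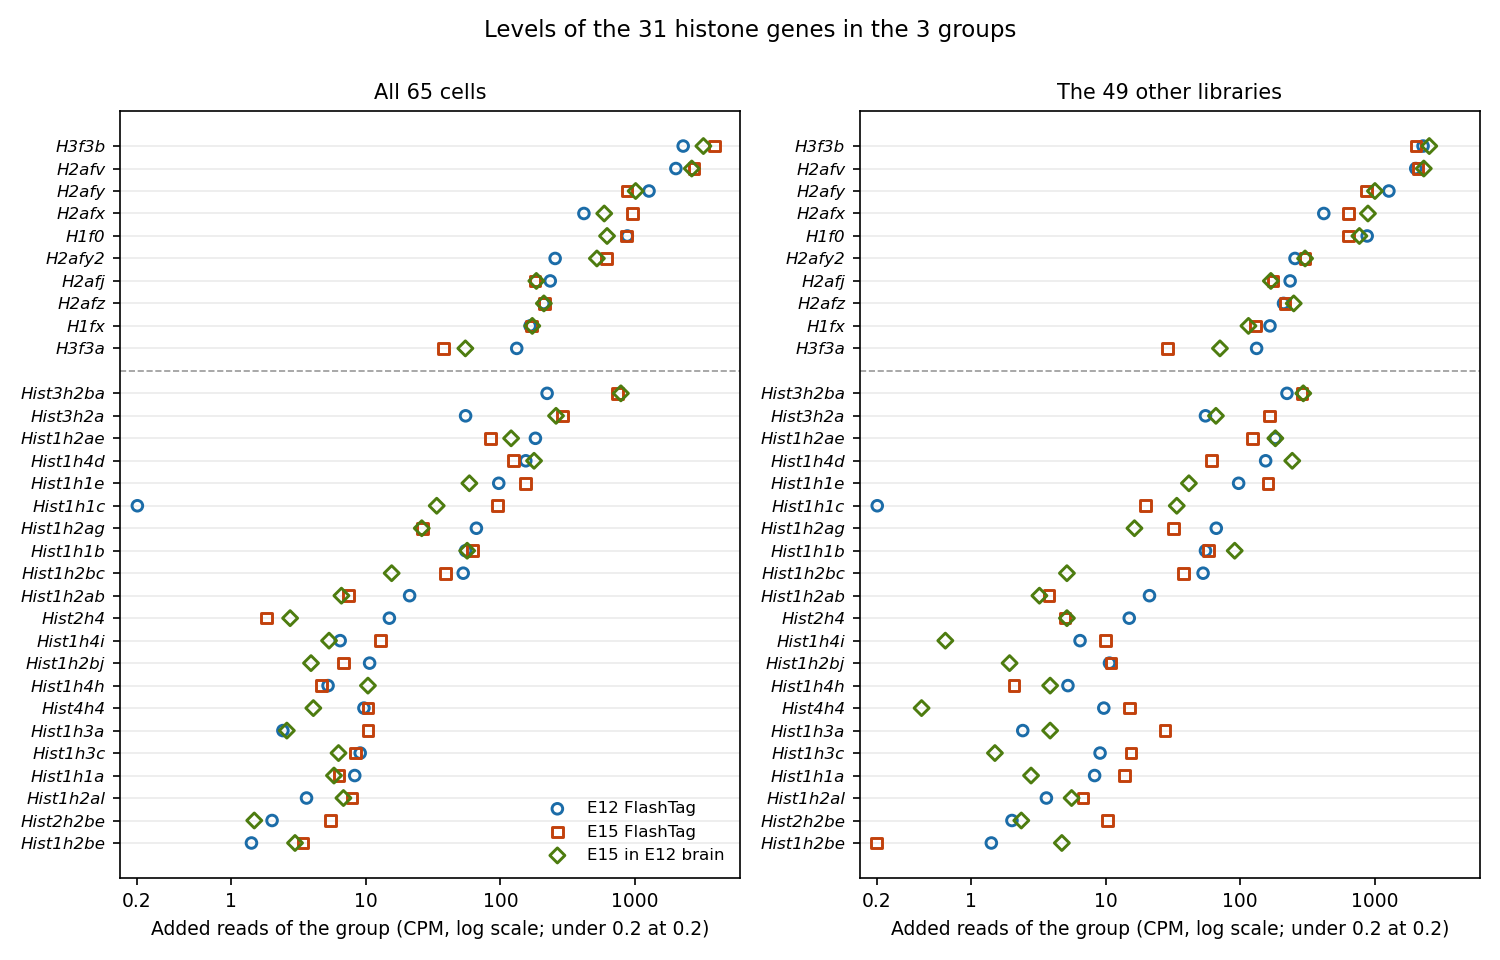
Level of each of the 31 histone genes in CPM of added reads (log scale) in the 3 groups, over all 65 cells (left) and over the 49 libraries with at most 8000 genes (right); variant genes are above the dashed line, replicative genes below it. Hist1h1c at E12 lies at 0.202 CPM, and the distances between groups for Hist3h2ba shrink in the right panel.

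Hist1h1c, a linker histone of the cluster on chromosome 13 (23738808 to 23740367, plus strand, GRCm38; 1 exon), had the widest difference between the ages. It had 1 read in 1 of 20 E12 cells, which is 0.202 CPM (0.00512 to 1.13). At E15 it had 3552 reads in 16 of 26 cells, 94.8 CPM (91.7 to 97.9), and in transplanted cells 428 reads in 8 of 19 cells, 33.7 CPM (30.5 to 37.0). The E15 level was 468.4-fold the E12 level (84.0 to 18506) and the transplanted level 166.3-fold (29.7 to 6586). Per cell it reached 7.04 CPM at E12, had a median of 69.2 and a maximum of 387.5 CPM at E15, and a median of 0 and a maximum of 287.4 CPM in transplanted cells. Its reads followed the many-gene libraries: all 11 of E15 had it, at 81.6 to 303.4 CPM, and all 5 transplanted ones, at 14 to 58.2 CPM. Of the other cells, 5 of 15 at E15 and 3 of 14 transplanted had a read, and the levels were 19.8 CPM (17.2 to 22.6) and 33.8 CPM (28.8 to 39.6). The order of E15 and transplanted cells thus turned, with a log2 ratio of transplanted over E15 of -1.47 over all cells and 0.75 without the 16 libraries. That turn rested on transplanted replicate 19, without which the other transplanted cells were at 11.7 CPM, and E15 without replicate 10 was at 11.2 CPM. The highest E15 cell, replicate 8, was not a many-gene library and had 62 reads of the gene. In the labels' 8 pools, whose meaning is not given, E15 exceeded E12 in 6, was lower in 1 and had no read in either group in 1. The 6 were the pools that held many-gene libraries of E15. In pools A and E, which held none, the gene had 0 E15 reads. At 20000 reads per cell it was read in 1 of 18 E12, 13 of 25 E15 and 3 of 19 transplanted cells. The deposited log10 values, which are residuals after 2 directions over cells were removed, had medians of -0.09 at E12, 0.09 at E15 and -0.23 in transplanted cells.

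Over all cells, the level of Hist1h1c ran with the ventral and microglia lists and with the number of genes, and less so in the 49 other libraries. Spearman's rho over the 65 cells was 0.64 with the ventral list, 0.52 with the microglia list and 0.62 with the number of genes detected. Over the 49 other libraries it was 0.20, 0.29 and 0.20. The neuron list had a rho of 0.49 over the 65 cells and the erythroid list, in the other direction, -0.46. Within E12, E15 and transplanted cells rho was -0.26, 0.67 and 0.67 with the ventral list. With the microglia list it was -0.10, 0.67 and -0.12. At E12 the gene was nearly absent. Cells share group, pool and depth in these values, and they are descriptions only.

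The other linker genes differed less between E15 and E12. Hist1h1e, a common linker histone of somatic cells, was at 97.3 CPM (88.8 to 106.4) at E12, 153.2 CPM (149.3 to 157.2) at E15 and 58.9 CPM (54.8 to 63.3) in transplanted cells, in 7 of 20, 19 of 26 and 10 of 19 cells. Without replicate 5, which held 55.5% of its E12 reads, E12 was at 64.7 CPM. Its cell medians were 0, 117.3 and 17.2 CPM and its highest cells 700.7, 425.3 and 1227 CPM. E15 over transplanted was 2.60-fold (2.41 to 2.81), and without the many-gene libraries the levels were 160.9 and 41.6 CPM. Hist1h2be overlaps Hist1h1e on the same strand over 496 bases, so reads there may be shared. Hist1h1b was at 55.2, 62.1 and 56.7 CPM, with 74.4% of its E12 reads in replicate 17; without that cell its E12 level was 16.2 CPM. Hist1h1a was at 8.30, 6.35 and 5.82 CPM. Together the 4 replicative H1 genes held 161.1, 316.4 and 155.1 CPM, and 252.5 and 169.2 CPM in E15 and transplanted cells without the many-gene libraries.

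The Hist3 pair lies apart from the main cluster, on chromosome 11 with 5151 bases between the genes. Hist3h2ba (58948920 to 58949533, plus strand, 1 exon) encodes an H2B and was the replicative gene with most reads. It was at 222.4 CPM (209.4 to 235.9) at E12, 743.2 CPM (734.5 to 752.0) at E15 and 784.7 CPM (769.4 to 800.3) in transplanted cells, in 18 of 20, 24 of 26 and 19 of 19 cells. Cells ranged from 0 to 733.9 CPM at E12 (median 209.6), from 0 to 1423 CPM at E15 (median 402.1) and from 25.1 to 2354 CPM in transplanted cells (median 447.3). E15 was 3.34-fold E12 (3.15 to 3.55). The log2 ratio was 1.74 over all cells, 1.54 without E15 replicate 7 and 0.37 without the many-gene libraries, where the levels were 287.2 CPM at E15 and 293.8 CPM in transplanted cells. Of those E15 reads 63.8% were in replicate 6, and without it the level was 132.5 CPM. Without the libraries above 7000 genes, a limit also set after the data had been seen, the log2 ratio turned to -0.96. The medians of the deposited log10 values, 0.14 at E12, -0.14 at E15 and 0.12 in transplanted cells, did not follow the order of the CPM either.

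Hist3h2a (58954685 to 58956830, plus strand, 1 exon) encodes an H2A, and Trim17, which was not analysed here, overlaps all of its 2146 bases on the same strand. It was at 55.2 CPM (48.9 to 62.2) at E12, 288.5 CPM (283.1 to 294.0) at E15 and 259.0 CPM (250.2 to 268.0) in transplanted cells, in 11 of 20, 22 of 26 and 14 of 19 cells. The cell medians were 7.89, 220.4 and 74.1 CPM, and the highest cells were at 764.4, 457.0 and 628.2 CPM, so that the highest cell of all was of E12. All 11 many-gene libraries of E15 lay between 149.0 and 457.0 CPM and the 5 transplanted ones between 291.2 and 451.8 CPM, while 9 of 20 E12 cells had no read. Without the many-gene libraries E15 was at 164.2 CPM and transplanted cells at 66.0 CPM. Of the 2 genes' reads, Hist3h2a took 19.9% (17.8 to 22.1) at E12, 28.0% (27.5 to 28.4) at E15 and 24.8% (24.1 to 25.6) in transplanted cells. At 20000 reads per cell Hist3h2a was read in 4 of 18 E12 cells (30.6 CPM), 18 of 25 E15 cells (224.0 CPM) and 13 of 19 transplanted cells (218.4 CPM). The pair was higher at E15 than at E12 in 7 of 8 pools. Only pools A and E held no many-gene library of E15. Hist3h2ba was at 593.7 CPM at E15 and 338.1 CPM at E12 in pool A, and at 83.1 and 229.7 CPM in pool E. Over the 65 cells the sum of the pair had a rho of 0.62 with the neuron list, 0.51 with the ventral list and -0.41 with the S phase list. Over the 49 other libraries these were 0.36, 0.21 and -0.17.

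**Figure D3:**
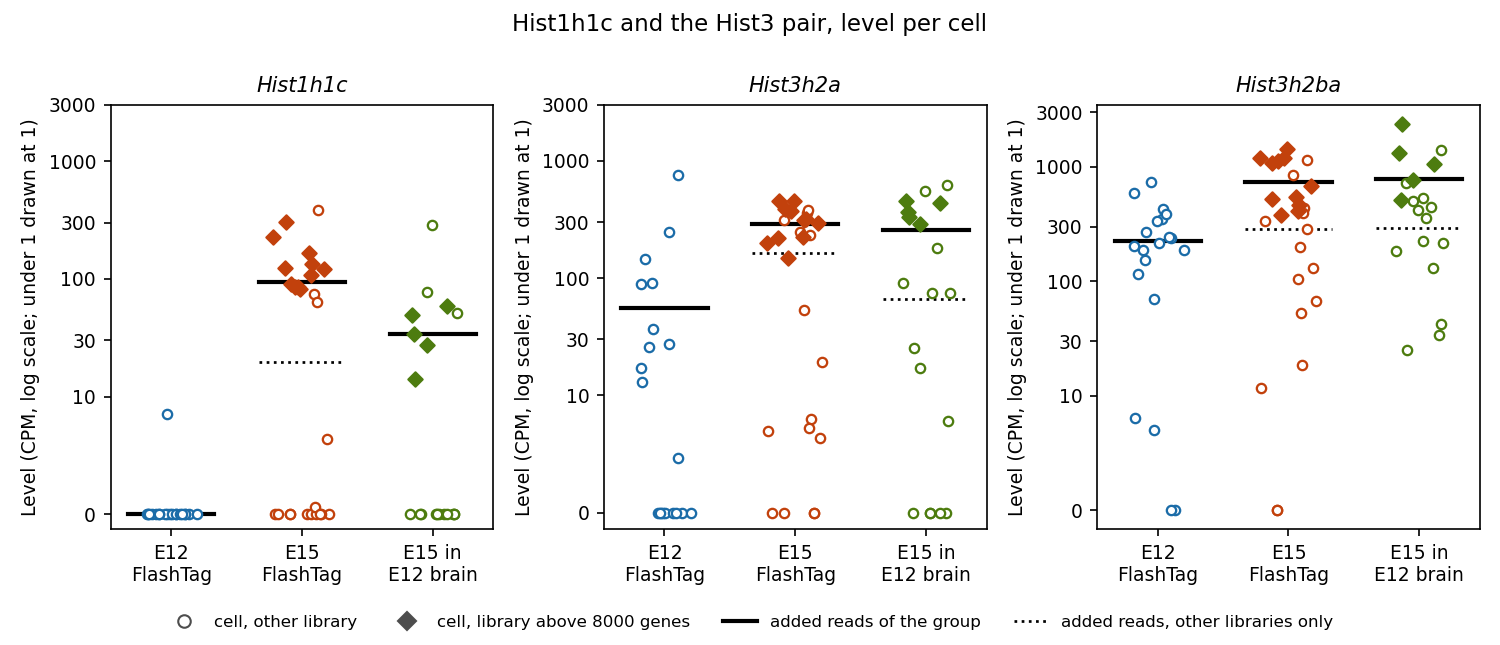
Level per cell in CPM (log scale, values under 1 drawn at 1) of Hist1h1c, Hist3h2a and Hist3h2ba in the 3 groups. Circles are cells, filled diamonds cells with reads of more than 8000 genes, thick lines the added reads of the group and dotted lines the same without the diamonds; for Hist1h1c all 11 E15 diamonds lie between 81.6 and 303.4 CPM while 10 of the 15 E15 circles are at 0.

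RefSeq gave a start site and the 250 bases before it for 25 of the 31 genes (GRCm38.p6). The letters CCAAT, bound by the factor NF-Y in many promoters, were searched on both strands, with TATAAA, the TATA box, and ATTTGCAT, the octamer known from H2B promoters. CCAAT was in 13 of 16 replicative promoters (81.2%), 5 of 9 variant ones (55.6%) and 34.5% of 27025 promoters; TATAAA in 50%, 11.1% and 13%; and ATTTGCAT in 3 of 16 replicative promoters, 1 of 9 variant ones and 1.61% of all. The first window listed for a gene was counted. For the 3 replicative H2B genes that window held no ATTTGCAT, and another window listed for Hist1h2be held 1. The 3 promoters below belong to the 3 replicative genes with the largest log2 ratios of E15 over E12, and capitals mark any of the 3 letter strings on either strand.
Hist1h1c, chr13:23738557-23738806 (plus strand): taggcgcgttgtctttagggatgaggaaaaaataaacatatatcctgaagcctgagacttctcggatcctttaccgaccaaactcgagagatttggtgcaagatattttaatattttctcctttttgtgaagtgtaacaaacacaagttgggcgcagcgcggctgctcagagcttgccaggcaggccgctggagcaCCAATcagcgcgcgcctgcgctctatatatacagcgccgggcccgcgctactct
Hist3h2ba, chr11:58948661-58948910 (plus strand): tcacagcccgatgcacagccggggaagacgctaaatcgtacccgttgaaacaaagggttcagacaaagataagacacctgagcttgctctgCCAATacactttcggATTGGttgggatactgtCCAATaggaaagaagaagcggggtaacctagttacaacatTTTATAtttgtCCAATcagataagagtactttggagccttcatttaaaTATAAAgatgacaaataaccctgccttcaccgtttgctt
Hist3h2a, chr11:58954435-58954684 (plus strand): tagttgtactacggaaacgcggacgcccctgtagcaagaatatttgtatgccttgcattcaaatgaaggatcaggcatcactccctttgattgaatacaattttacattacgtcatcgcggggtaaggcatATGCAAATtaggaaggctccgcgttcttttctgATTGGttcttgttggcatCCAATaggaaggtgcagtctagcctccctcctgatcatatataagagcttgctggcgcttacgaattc

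In these windows Hist3h2ba had 4 CCAAT and 2 TATAAA matches, Hist3h2a had 2 CCAAT matches and 1 octamer, and Hist1h1c had 1 CCAAT match. The 2 genes of the pair are on the same strand and so do not share 1 window, unlike Hist1h2ag and Hist1h2bj on chromosome 13, which face away from each other with 269 bases between them. Hist1h2ag (22042460 to 22042944) was at 66.4, 26.4 and 26.1 CPM in E12, E15 and transplanted cells, and its partner Hist1h2bj at 10.7, 6.83 and 3.93 CPM. Replicate 17 supplied 63.7% of the Hist1h2ag reads at E12, and without it the E12 level was 27.5 CPM.

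Among the H2A and H2B genes of the main cluster, Hist1h2ae (chromosome 13, 23570517 to 23571220, minus strand), an H2A gene, had most reads and was lower at E15 than at E12. Its levels were 182.1 CPM (170.4 to 194.4) at E12, 84.9 CPM (82.0 to 87.9) at E15 and 120.2 CPM (114.2 to 126.3) in transplanted cells, with cell medians of 75.3, 27.4 and 90.0 CPM. Without the many-gene libraries E15 was at 123.4 CPM and transplanted cells at 182.3 CPM, and the 15 E15 cells behind that level ranged from 0 to 946.8 CPM. Hist1h2ab, another H2A gene, was at 21.2, 7.42 and 6.61 CPM, but 64.8% of its E12 reads came from replicate 9, without which E12 stood at 8.04 CPM. Hist1h2bc, an H2B gene with a spliced annotated transcript, was at 53.0, 39.0 and 15.6 CPM, in 4 of 20, 18 of 26 and 8 of 19 cells, and 66% of the E12 reads were in replicate 5, without which E12 was at 26.9 CPM. Without the many-gene libraries Hist1h2bc was at 38.0 CPM at E15 and 5.17 CPM in transplanted cells, and at 23.5 and 1.62 CPM without E15 replicate 13 and transplanted replicate 2. E15 over transplanted was 2.49-fold (2.15 to 2.90) for Hist1h2bc. Hist1h2be, Hist2h2be and the pseudogene Hist1h2al stayed at or under 7.92 CPM in every group.

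Hist1h4d, an H4 gene (chromosome 13, 23581598 to 23582735, plus strand), was present or nearly absent from cell to cell. Its summed levels were 154.4 CPM (143.6 to 165.7) at E12, 124.9 CPM (121.3 to 128.5) at E15 and 177.9 CPM (170.6 to 185.4) in transplanted cells, but the cell medians were 5.55, 1.09 and 160.6 CPM. No read was found in 10 of 20 E12, 11 of 26 E15 and 3 of 19 transplanted cells, and the highest cells were at 1817, 344.0 and 1054 CPM. The 11 many-gene libraries of E15 spanned 0 to 344.0 CPM with a median of 6.94 CPM. Among them, replicate 25 had no Hist1h4d read in 2862993 reads and replicate 11 had 1, which is 0.629 CPM, while replicates 1, 4, 5 and 7 were at 127.8 to 344.0 CPM. Hist1h1c and Hist3h2a had no such low values in these same 11 libraries. The 5 transplanted many-gene libraries had Hist1h4d at 54.1 to 184.6 CPM. Without the 16 libraries the levels were 61.0 CPM at E15 and 243.3 CPM in transplanted cells, a log2 ratio of 1.98 for transplanted over E15 against 0.51 over all cells; 68% of those E15 reads were in replicate 6, without which E15 was at 24.9 CPM. At 20000 reads per cell the gene was read in 9 of 18 E12, 7 of 25 E15 and 15 of 19 transplanted cells. Transplanted cells were higher than E15 cells in 4 of 7 pools. The deposited log10 medians, -0.40, -0.58 and 0.37, had the same order.

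The other 4 H4 genes and both H3 genes were at low levels. Hist1h4i was at 6.47, 12.9 and 5.35 CPM, Hist1h4h at 5.26, 4.70 and 10.4 CPM, Hist2h4 at 15, 1.84 and 2.75 CPM and Hist4h4 at 9.71, 10.4 and 4.09 CPM in E12, E15 and transplanted cells. Single cells decided several of these: all 32 reads of Hist1h4i at E12 were in replicate 2, and replicate 11 held 58.3% of those of Hist4h4. The H3 genes Hist1h3a and Hist1h3c summed to 11.5, 18.7 and 8.89 CPM. Hist1h3a was at 2.43 CPM at E12 and 10.4 CPM at E15, of which 37.4% was in replicate 18.

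Each cell's replicative reads came from few genes. The gene with most replicative reads in a cell held a median of 49.5% of them (22.4% to 100%) over the 65 cells, and more than 50% in 31 cells. For the 10 variant genes that median was 36.7%, with 7 cells above 50%. Hist3h2ba led in 7 of 20 E12 cells, 18 of 26 E15 cells and 15 of 19 transplanted cells, and, without the many-gene libraries, in 7 of 15 and 10 of 14. The E12 cells had 7 different leading genes, with Hist1h4d in 5 cells and Hist1h2ae in 3, and the transplanted cells only Hist3h2ba and, in 4 cells, Hist1h4d. These are shares of reads near the 3′ end and not of transcript numbers. A read was found for a median of 6.5 of the 21 replicative genes per E12 cell, 13.5 per E15 cell and 9 per transplanted cell, and for 9, 10 and 10 of the 10 variant genes, at the unequal depths given above.

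The variant genes for H3.3, the H3 placed outside S phase, differed in balance. H3f3b (chromosome 11, 116021912 to 116027962, minus strand) was at 2277 CPM (2235 to 2319) at E12, 3876 CPM (3856 to 3896) at E15 and 3216 CPM (3185 to 3247) in transplanted cells, and at 2020 and 2531 CPM in the latter 2 without the many-gene libraries. H3f3a (chromosome 1, 180800832 to 180813943, minus strand), which encodes the same protein, was at 132.3 CPM (122.4 to 142.9), 37.9 CPM (36.0 to 39.9) and 55.0 CPM (51.0 to 59.2). Its share of the reads of both genes was 5.49% (5.09 to 5.92) at E12, 0.969% (0.919 to 1.02) at E15 and 1.68% (1.56 to 1.81) in transplanted cells, and 1.41% and 2.72% without the many-gene libraries. Its reads were uneven over E12 cells, with 32.3% of them in replicate 5. H3f3a cell medians were 11, 17.6 and 8.61 CPM, reads were present in 11 of 20, 19 of 26 and 11 of 19 cells, and the highest E12 cell reached 1087 CPM. Within pools E15 was lower than E12 in 5 of 8, and the mean of these log2 ratios was 0.30, against -1.78 for the sums. Pools C and H had no E12 read of H3f3a. H3f3a and H3f3b have many processed copies in the genome, and reads that fit several places may have been lost or moved.

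H2A.Z, which marks promoters and enhancers, is encoded by H2afz and H2afv. H2afz (chromosome 3, 137864487 to 137866922, plus strand) had similar summed levels in the 3 groups, at 209.6 CPM (197.0 to 222.8) at E12, 212.3 CPM (207.7 to 217.0) at E15 and 210.4 CPM (202.5 to 218.5) in transplanted cells. It was read in 19 of 20, 26 of 26 and 19 of 19 cells, with cell medians of 249.8, 204.3 and 222.1 CPM. Within pools E15 was lower than E12 in 7 of 8, and at 20000 reads per cell the levels were 266.7, 220.0 and 234.2 CPM. The ratio of the sums for E15 over E12 was 1.01 (0.949 to 1.08) and that of transplanted over E15 0.991 (0.948 to 1.04). Without the many-gene libraries E15 was at 214.9 CPM and transplanted cells at 249.6 CPM. H2afv was at 2009 CPM (1970 to 2049), 2744 CPM (2727 to 2761) and 2636 CPM (2608 to 2664) in the 3 groups. H2afz thus took 9.45% (8.91 to 10), 7.18% (7.03 to 7.34) and 7.39% (7.12 to 7.67) of the reads of the pair, and 9.31% and 9.77% in E15 and transplanted cells without the many-gene libraries.

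The macroH2A genes, whose large H2A carries an extra domain and is linked to gene silencing, had nearly the same sum over all cells while their balance differed. Together they were at 1525 CPM at E12, 1482 CPM at E15 and 1531 CPM in transplanted cells, with 1169 and 1303 CPM in the latter groups without the many-gene libraries. H2afy was at 1270 CPM (1238 to 1302), 870.9 CPM (861.4 to 880.4) and 1010 CPM (993.0 to 1028). H2afy2 was at 255.1 CPM (241.3 to 269.6), 610.9 CPM (603.0 to 618.8) and 520.8 CPM (508.3 to 533.4), with cell medians of 303.1, 470.8 and 423.7 CPM. The share of H2afy2 in their reads was 16.7% (15.9 to 17.6) at E12, 41.2% (40.8 to 41.6) at E15 and 34.0% (33.3 to 34.7) in transplanted cells. In the 11 many-gene libraries of E15, H2afy2 lay between 499.3 and 890.0 CPM, above the median E12 cell. The ranges overlapped, as the E12 cells of pools C, D and H were at 852.5, 804.7 and 732.1 CPM. Those of the other pools were at 68.7 to 493.2 CPM. Without the 16 libraries the shares of H2afy2 were 25.8% (25.1 to 26.6) and 23.3% (22.2 to 24.3), and its levels 302.2 and 303.0 CPM. The log2 ratio of H2afy2 for E15 over E12 was 1.26 over all cells, 0.24 without the 16 libraries and -0.46 without those above 7000 genes.

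**Figure D4:**
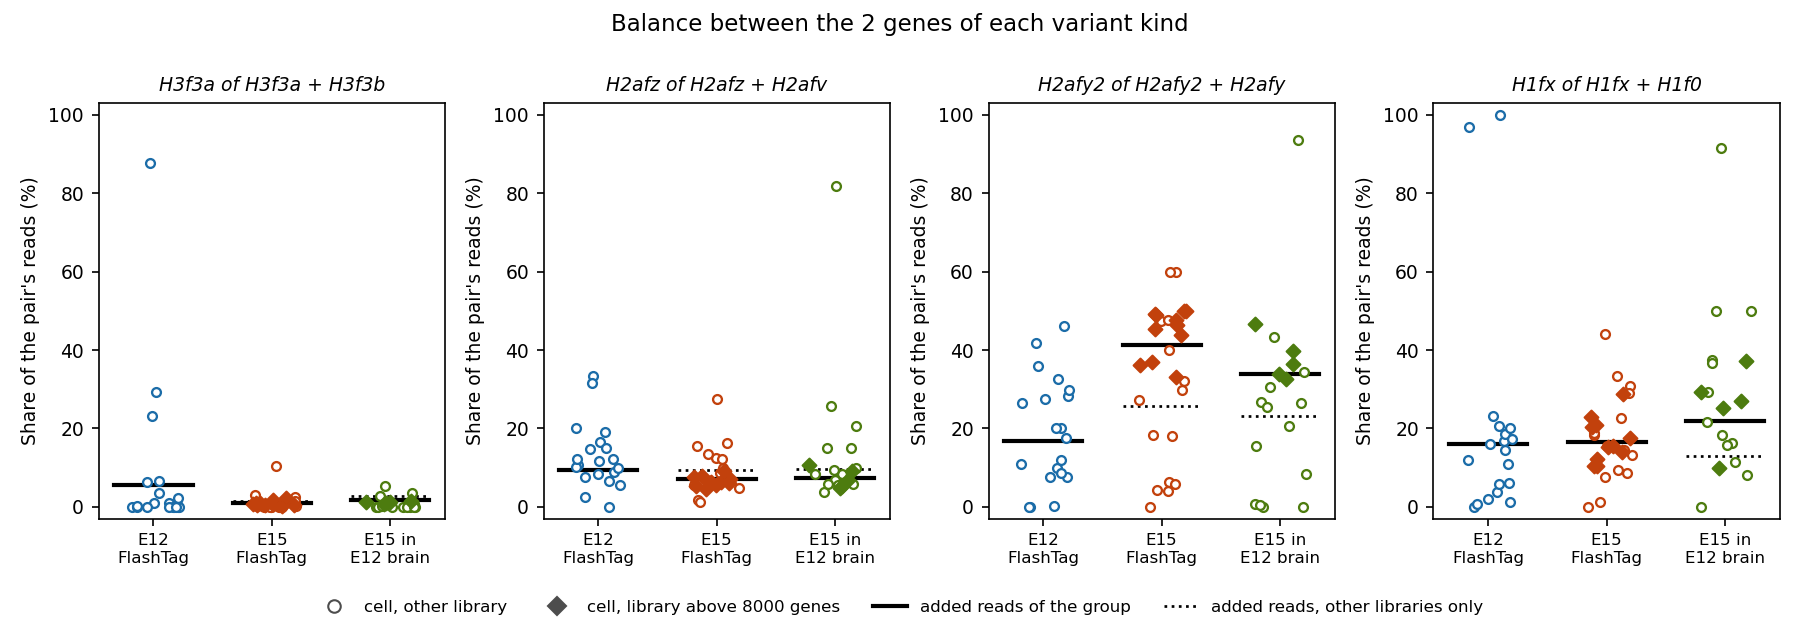
Share in percent of the first gene in the reads of 4 pairs of variant genes (H3.3, H2A.Z, macroH2A and linker H1) in the 3 groups. Circles are other cells with reads of the pair, filled diamonds cells with reads of more than 8000 genes, thick lines the added reads of the group and dotted lines the same without the diamonds; the H2afy2 line lies at 16.7% at E12, 41.2% at E15 and 34.0% in transplanted cells.

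H2afx (chromosome 9, 44334694 to 44336077, plus strand, 1 exon), the H2A phosphorylated at DNA breaks, was at 417.2 CPM (399.4 to 435.6) at E12, 961.5 CPM (951.6 to 971.5) at E15 and 590.5 CPM (577.2 to 604.0) in transplanted cells. Its cell medians were 285.3, 737.1 and 479.0 CPM, it was read in 16 of 20, 25 of 26 and 19 of 19 cells, and single cells reached 1826, 2387 and 1035 CPM. E15 was 2.30-fold E12 (2.20 to 2.41). Without the many-gene libraries E15 was at 633.8 CPM and transplanted cells at 887.5 CPM, so that transplanted cells passed E15 cells; of these transplanted reads 64.9% were in replicate 19. At 20000 reads per cell the levels were 463.9, 856.0 and 515.8 CPM. H2afj, another replication-independent H2A, was at 234.7, 180.5 and 185.0 CPM. The linker H1f0, known from cells that leave the cycle, was at 875.9 CPM (850.0 to 902.4), 863.7 CPM (854.4 to 873.2) and 619.7 CPM (606.1 to 633.5), with 637.5 CPM at E15 and 766.6 CPM in transplanted cells without the many-gene libraries, the latter at 489.5 CPM without replicate 19. H1fx was at 166.3, 170.2 and 172.6 CPM. Gm5577, which has a row, overlaps H1fx on the other strand over 755 bases.

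Counted by gene at a 2-fold difference, among genes at 5 CPM or more in either group, the histone genes did not exceed the whole set in the E15 against E12 comparison. Of 30 genes 7 were at least 2-fold higher at E15, where 25.3% of all 10193 genes were, and 5 at least 2-fold lower, where 20.3% were. The higher ones were 5 replicative and 2 variant genes (H2afx and H2afy2), the lower ones 4 replicative genes and H3f3a. The median log2 ratio was -0.01 for 20 replicative and 0.03 for 10 variant genes, beside -0.03 for all genes. As means of ratios within the 8 pools the replicative median was 1.41. Pools were small, and in pool H, with 1 E12 cell, 1 read was 91.5 CPM. Most replicative genes had no E12 read there. A gene without a read in a pool entered at the added 1 CPM, so this median rests partly on values at the floor. In the 49 other libraries 4 were higher (24.2% of all genes) and 6 lower (21.6%). Between transplanted and E15 cells 0 of 29 were at least 2-fold higher (4.71% of all genes) and 7 lower (11.8%), all 7 among the 19 replicative genes, with a median of -0.19 for these, -0.04 for the variant genes and -0.08 for all genes. Named by level, those 7 included Hist1h1c, Hist1h1e and Hist1h2bc, and the other 4 were under 13 CPM. Without the 16 libraries 2 of 28 were higher (18.7%) and 10 lower (28%), the latter all replicative. Between transplanted and E12 cells 4 of 28 were higher (22.9%) and 7 lower (24.7%), with medians of -0.46 for the replicative, 0.03 for the variant and -0.09 for all genes, and without those libraries 2 (22.5%) and 10 (29.8%). Within pools that replicative median turned to 1.01. The comparisons share groups, so their counts are not independent of each other.

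Genes that make, carry and need histones were set beside them. The 30 S phase genes, among them replicative helicase and nucleotide genes, summed to 6830 CPM at E12, 3544 CPM at E15 and 4384 CPM in transplanted cells. At E15 12 of 30 were at least 2-fold lower than at E12 (20.3% of all genes) and 0 higher (25.3%). Their median log2 ratio was -0.96. Without the many-gene libraries 7 were lower (21.6% of all genes) and 0 higher (24.2%), and the median was -0.78. Over all cells Dut, which keeps uracil out of DNA, was at 726.4 CPM at E12 and 353.2 CPM at E15. Ccne2, the cyclin that starts replication, was at 43.5 and 8.27 CPM in E12 and E15 cells. Mcm7, a helicase subunit, was at 692.0 and 355.8 CPM, and Cdc6, which loads the helicase, at 48.2 and 12.3 CPM. Between E15 and transplanted cells the widest ratios of the list were those of Ung, which removes uracil from DNA, at 11.4 and 28.6 CPM, and the helicase subunit Mcm3, at 67.1 and 139.3 CPM. In transplanted cells 3 S phase genes lay at least 2-fold above their E15 level, where 4.71% of all genes did. Below it by that margin lay 0, where 11.8% of all genes did, and the median log2 ratio was 0.29. Once the 16 libraries were left out, 9 S phase genes lay above (18.7% of all genes) and 2 below (28%). The S phase sums were then 7118 CPM in transplanted cells and 4389 CPM in E15 cells. The 21 replicative histone genes summed to 981.5 CPM at E12 and 1703 CPM at E15, and the 18 without Hist1h1c and the Hist3 pair to 703.7 and 576.4 CPM. Of 18 G2 and M phase genes 5 were at least 2-fold higher at E15, near the 25.3% of all genes, and 0 lower (20.3% of all genes; median 0.63). Without the 16 libraries 3 passed 2-fold upward (24.2% of all genes) and 1 downward (21.6%), with a median of 0.18. The 18 genes summed to 2173.5 CPM at E12 and 3432 CPM at E15, but to 2209 CPM at E15 without those libraries. Over all cells Cdc20, which starts anaphase, was at 344.1 CPM at E15 and 44.3 CPM at E12, and Hmmr, a spindle protein, was at 70.8 and 9.71 CPM. The list's most abundant genes were Ube2c, at 583.1 CPM at E15 and 217.5 CPM at E12, and Birc5, at 463.4 and 233.1 CPM. In transplanted cells against E15 cells 0 of the 18 were 2-fold higher (4.71% of all genes) and 0 lower (11.8%), with a median of -0.17. That direction turned without the 16 libraries, where 2 were higher (18.7% of all genes) and 3 lower (28%), with a median of 0.52. The sums there were 3264 CPM in transplanted and 2209 CPM in E15 cells, and without replicate 19 the transplanted sum was 1957 CPM.

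**Figure D5:**
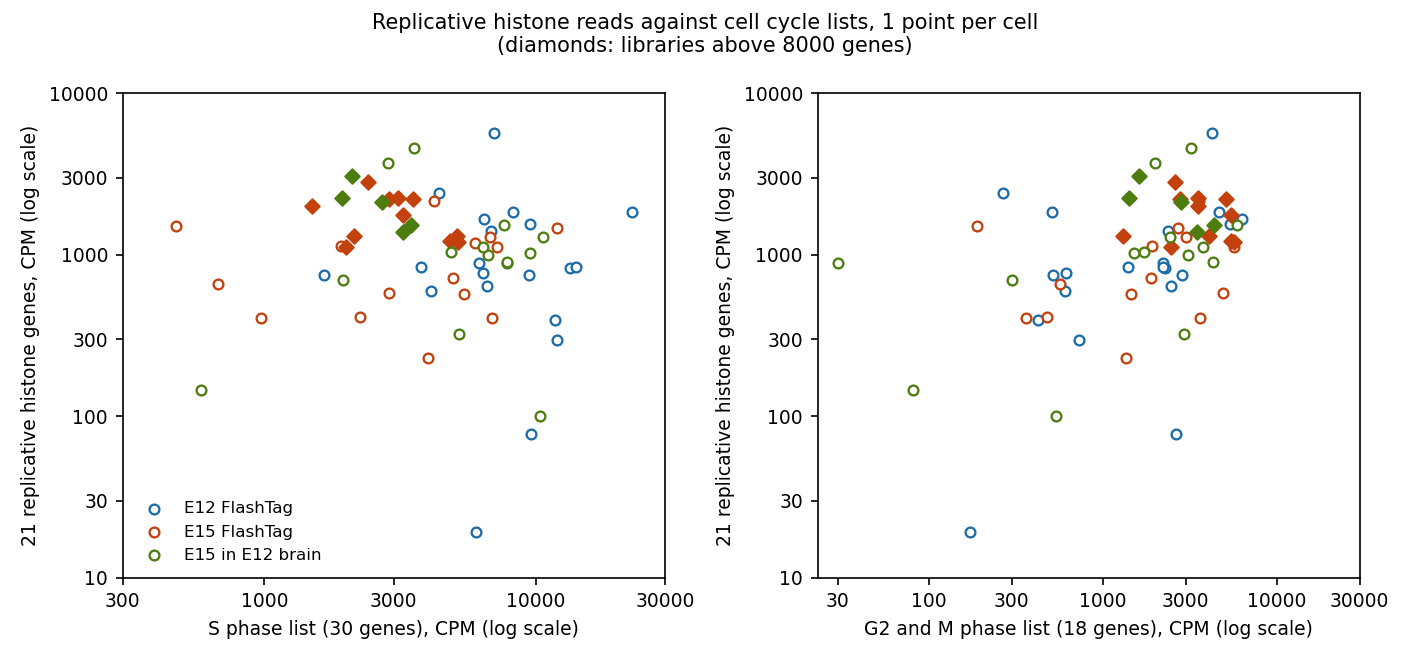
Summed level of the 21 replicative histone genes against that of 30 S phase genes (left) and of 18 G2 and M phase genes (right), in CPM on log scales, 1 point per cell; diamonds are cells with reads of more than 8000 genes. Spearman's rho over the 65 cells is -0.18 with the S phase list and 0.42 with the G2 and M phase list, and 0.10 and 0.43 over the 49 circles.

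Cell by cell the replicative sum had a rho of -0.18 with the S phase list over the 65 cells and of 0.10 over the 49 other libraries. With the G2 and M phase list it was 0.42 and 0.43. Within E12, E15 and transplanted cells the values were 0.03, -0.08 and -0.33 for S phase and 0.32, 0.28 and 0.38 for G2 and M phase. With the variant sum the rho was 0.41 over all cells. Of 11 genes of histone messenger RNA processing 9 had a row, and 2 were at least 2-fold lower at E15 than at E12, near the 20.3% of all genes, and 0 higher (25.3% of all genes; median -0.38). Without the 16 libraries 2 were lower (21.6% of all genes) and 1 higher (24.2%), and the median was -0.07. The 2 lower over all cells were Casp8ap2, a factor of histone locus bodies, at 234.5 CPM at E12, 67.1 CPM at E15 and 73.4 CPM in transplanted cells, and Eri1, an exonuclease that trims the stem-loop, at 75.9 CPM at E12 and 35.8 CPM at E15. Cpsf3, the endonuclease that cuts these messenger RNAs, was at 185.9 CPM at E12, 142.3 CPM at E15 and 131.7 CPM in transplanted cells. Of the 9 genes 0 were 2-fold higher in transplanted than in E15 cells (4.71% of all genes) and 0 lower (11.8%). Without the 16 libraries 2 were higher (18.7%) and 2 lower (28%). All 30 histone chaperone, exchange and centromere genes had a row, of which 4 were at least 2-fold higher (25.3% of all genes) and 3 lower (20.3%) at E15; their median log2 ratio was -0.02. Cenpa, the centromeric H3, was at 132.5 CPM at E12, 500.9 CPM at E15 and 380.9 CPM in transplanted cells, and at 299.9 and 261.9 CPM in the latter 2 without the many-gene libraries. Mcm2, a helicase subunit that also holds H3 and H4, was at 311.0 CPM at E12, 119.4 CPM at E15 and 254.3 CPM in transplanted cells. Anp32e, which takes H2A.Z out of nucleosomes, was at 411.3, 557.6 and 520.8 CPM, and Ncl, a nucleolar protein that also binds histones, at 618.1, 702.4 and 676.8 CPM. Against E15 cells, transplanted cells had 1 of the 30 genes 2-fold higher, Mcm2, and 1 lower, the H3.3 chaperone Daxx, at 25.6 against 56.5 CPM, where 4.71% and 11.8% of all genes were. Without the 16 libraries 4 were higher (18.7%) and 4 lower (28%).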

How the data were processed

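Single-cell RNA libraries of 65 cells were made with the SMART-Seq v4 3′ kit and Nextera XT, per the labels' protocols. STAR, HTSeq and the mm10 genome are named in the submitters' processing notes, with no version. The deposited values are log10 values per gene and cell. Their form, log10 of 1 plus scaled counts, centred, with 2 further directions over cells removed, was inferred from the values themselves. Read counts, which the plan had assumed, were recovered from them: all 356667 non-zero values of 10407 genes came within 0.01 of a whole number, and a simulation of the step recovered 3000 of 3000 genes. Counts were added per group and divided by the group's total (CPM). Differences are log2 ratios with 1 CPM added, counted at 2-fold among genes at 5 CPM or more in either group. The labels name no animals, so no test was made, and limits are exact 95% Poisson or binomial limits. Genes are named in full at 20 CPM or more in a group. The genes named from other lists are among the 2 highest levels or the 2 largest ratios of a list. The gene members and lists were chosen with earlier results of these data known, and the limit of 8000 genes was likewise known. Cells were thinned to 20000 reads where this is said, which left out 2 E12 cells and 1 E15 cell. Transcripts and positions are from GENCODE vM21, promoters from RefSeq (GRCm38.p6). Counts were recovered with Python 3.11.15 and Numba 0.67.0, limits came from SciPy 1.17.1, tables from pandas 2.3.3 with NumPy 2.4.6, and plots from Matplotlib 3.10.9.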

Additional observations from a re-analysis of the deposited data

How the results depend on the processing

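Each group is 1 sample, and E12 holds no many-gene library, so group, depth and library kind cannot be fully told apart. No paired analysis was possible because the replicate numbers only follow the order of the samples, and each group is 1 sample; the 8 pools that the labels share between groups gave ratios within pools instead. The 7 histone genes at least 2-fold higher at E15 than at E12 became 4 by the mean CPM of single cells and 4 without libraries above 8000 genes; leaving out 1 cell gave 6 to 9. The 5 lower became 9 after thinning and 8 without libraries above 7000 genes (4 to 6 without 1 cell). The replicative median was 1.41 as a mean of ratios within pools. Pools were small, and a gene without a read in a pool entered at the added 1 CPM, so ratios within pools lie partly at the floor. For transplanted against E15 cells, the 0 higher became 6 by mean CPM, 7 after thinning, 1 with median-of-ratios factors, 1 with 0.1 CPM added, 2 without libraries above 8000 genes, 1 without the 10 cells with fewest reads, 7 without libraries above 7000 genes and 0 to 1 without 1 cell. The 7 lower became 4 by mean CPM, 4 after thinning, 4 with 5 CPM added and 3 at a 20 CPM minimum (5 to 8 without 1 cell). For transplanted against E12 cells, the replicative median was 1.01 within pools, the 4 higher became 2 without libraries above 8000 genes (3 to 6 without 1 cell), and the 7 lower became 4 at a 20 CPM minimum (5 to 8 without 1 cell). The shares of all genes moved too. Without libraries above 8000 genes, transplanted over E15 went from 4.71% to 18.7% higher and from 11.8% to 28% lower. For the other settings the shares of all genes are not given. The counts there do not tell histone genes from the whole set.

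Of the log2 ratios that were at least 2-fold over all cells, for genes at 20 CPM or more in a group, these changed sign. For E15 over E12, the deposited values gave -0.14 for H2afy2 and -0.51 for Hist3h2ba, leaving out libraries above 7000 genes gave -0.46 and -0.96, and ratios within pools gave 0.30 for H3f3a and 0.53 for Hist1h2ag. For transplanted over E15, Hist1h1c was at 0.75 without libraries above 8000 genes. For transplanted over E12, the deposited values gave -0.36 for H2afy2 and -0.10 for Hist1h1c. Ratios within pools gave -0.62 for H2afy2, 1.98 for Hist1h2bc, 0.43 for H3f3a and 0.39 for Hist1h2ag. Hist1h2bc had no E12 read in pools A, B, C, D and H. Smaller ratios turned too: without libraries above 8000 genes, transplanted over E15 went from -0.70 to 0.49 for H2afx, from -0.27 to 0.33 for H3f3b, from -0.48 to 0.27 for H1f0 and from -0.13 to 0.64 for Hist1h1b, and E15 over E12 from 0.77 to -0.17 for H3f3b. The cause was not tested. The limits of 7000 and 8000 genes and the 20000-read depth are choices made with the data known.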
